A study of Homo sapiens with 6 samples.

Results

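The RNAs described here encode the membrane mucin MUC1, plakoglobin and 8 further proteins of cell adhesion, in RNA immunoprecipitation sequencing (RIP-seq) of WaGa cells. The genes were taken by name from the count table as *MUC1*, *JUP*, *CTNNB1*, *CTNNA1*, *CTNND1*, *CDH1*, *CDH2*, *DSP*, *PKP4* and *EPCAM*, which are 10 of its 60655 genes. They were chosen with their difference between the pull-downs already known, so that difference is given as a description with no test. Of the 10 genes, 9 had enough counts to enter the fit, among 14507 genes in all, and *DSP* did not.

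WaGa is an established Merkel cell carcinoma (MCC) cell line that carries Merkel cell polyomavirus, and all libraries came from this 1 line. The cells were wild type and untreated. Lysate was incubated with an antibody against the RNA-binding protein IGF2BP3 or with IgG, an antibody with no cellular target that serves as the background, and the RNA on the beads was sequenced. Each pull-down (IP) had 3 libraries, numbered 1 to 3 in both groups and described as independent replicates. No source used here says whether libraries of the same number shared a lysate, and no library of unprecipitated RNA was analysed here. The comparison asks which of these RNAs came down with IGF2BP3 above the IgG background.

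Epithelial cells hold together through adherens junctions and desmosomes. In an adherens junction, the tails of cadherins such as E-cadherin and N-cadherin bind beta-catenin or plakoglobin, and alpha-catenin links these to actin. In a desmosome, plakoglobin and plakophilins join desmosomal cadherins to desmoplakin and so to keratin filaments. Beta-catenin and plakoglobin can also enter the nucleus, and the cytoplasmic tail of MUC1 can bind both of them. Merkel cells and MCC are keratin-positive, and EPCAM, an adhesion molecule of simple epithelia, is widely used to detect carcinoma cells. IGF2BP3 belongs to a family that binds mature RNAs through KH domains and influences their stability and translation. RNA sequences rich in C and A, and methylated adenosines followed by C, have been described for this family.

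Over all genes, library totals ran from 9758759 to 14886414 counts, and in both IPs replicate 1 differed from the other replicates over many genes. Of 12 markers of MCC, 11 had at least 10 counts in every library, and their summed TPM ran from 2384 to 3517 in the IgG IP and from 2831 to 3639 in the IGF2BP3 IP. *NEUROD1* had 2 counts in IgG IP replicate 3 and 0 in the other libraries. Of 5 keratinocyte markers only *KRT10*, and of 5 fibroblast markers only *DCN*, reached 10 counts in every library, while *KRT14* and *COL3A1* had 0 in all 6. None of 5 leukocyte and 3 endothelial markers did. None of these 30 markers passed the thresholds between the IPs.

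The windows printed here show where letters of the IGF2BP kind lie closest together. They come from the RNAs with the largest difference between the IPs and from those with the highest TPM in the IgG IP. The motifs searched were TGGAC and CATA, CATC or CATT, on the sense strand alone since the target is RNA. TGGAC can share its last C with a following CAT motif. Each window is the first 30-base stretch within 1 exon of the canonical transcript (GENCODE version 44, GRCh38) with the most matches, written 5′ to 3′ on the strand of the gene with the matches in capitals. All lie in coding sequence.
*MUC1*, exon 6, chr1:155187461-155187490, minus strand: ctggttgcgctggcCATTgtctatctCATT
*JUP*, exon 3, chr17:41769493-41769522, minus strand: ctgctcaagtcggcCATTgtgCATCtCATC
*CTNNB1*, exon 5, chr3:41225482-41225511, plus strand: ctgggaccttgCATAacctttccCATCATC
*EPCAM*, exon 4, chr2:47375234-47375263, plus strand: ctggatCATCATTgaactaaaacacaaagc
*MUC4*, exon 2, chr3:195789713-195789742, minus strand: cacCATCaacaaatCATTcaacaataCATT
The *MUC1* and *EPCAM* windows held 2 matches, as many or more of which stood in 4.61% of the 53880897 windows of this length in the transcripts of all tested genes. The windows of *JUP*, *CTNNB1* and *MUC4* held 3, reached in 0.489% of them. Each printed window was picked as the best of its transcript, and a long transcript holds many windows. The shares thus do not show that a transcript with such a window is unusual. A match describes letters and does not show binding.

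*MUC1* encodes a heavily glycosylated mucin that lines the outer surface of epithelial cells. The gene lies at chr1:155185824-155192916 on the minus strand of GRCh38 (ENSG00000185499.16), with 8 exons in its canonical transcript. The IgG IP gave 79, 121 and 123 counts in replicates 1 to 3, and the IGF2BP3 IP gave 193, 276 and 293. Normalized CPM put counts on a common library size by the TMM method, and were 8.56, 8.11 and 9.92 with IgG and 16.2, 20.8 and 23.8 with the IGF2BP3 antibody. All 3 IGF2BP3 IP libraries lay above all 3 IgG IP libraries, and the lowest of them was replicate 1. The means were 20.3 ± 3.84 (SD, n = 3) and 8.86 ± 0.943 (SD, n = 3). The fit put the IGF2BP3 IP 1.19 above the IgG IP on the log2 scale (standard error 0.17, 95% confidence interval 0.80 to 1.59), or 2.29-fold. Within pairs of the same replicate number the log2 ratios were 0.92, 1.36 and 1.26.

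*JUP* encodes plakoglobin, also called gamma-catenin, which sits in both adherens junctions and desmosomes. It lies at chr17:41754604-41786931 on the minus strand (ENSG00000173801.17), with 14 exons. Its counts were 341, 497 and 524 with IgG and 639, 767 and 725 with the IGF2BP3 antibody. The normalized CPM were 37.0, 33.3 and 42.3 with IgG and 53.6, 57.9 and 58.9 with the IGF2BP3 antibody. Here too the groups did not overlap, and the IGF2BP3 IP libraries lay close together. The fitted difference was 0.60 on the log2 scale (standard error 0.11, 95% confidence interval 0.35 to 0.85), or 1.52-fold, just above the 0.58 that 1.5-fold makes on the log2 scale. The pairs gave log2 ratios of 0.54, 0.80 and 0.48.

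*MUC1* and *JUP* were thus the 2 of the 10 genes past the thresholds of at least 1.5-fold and an adjusted p-value under 0.05 over all tested genes, and none was past them in the other direction. Over all tested genes 1.16% passed upward and 0% downward, and since the genes were chosen on this comparison nothing is read from the count. In the same way, the IGF2BP3 IP libraries all exceeded the IgG IP libraries for these 2 genes, an order seen in 12% of tested genes, and the reverse order was seen for 0 of the 9 genes and in 8.69% of tested genes. The fitted log2 fold change of *MUC1* was at or above that of 99.7% of tested genes, and that of *JUP* at or above 95.1%. Both calls depended on which libraries were kept, as did most calls over all tested genes. *MUC1* missed the adjusted p-value when IgG IP replicate 2 (log2 fold change 1.13) or 3 (1.29), or IGF2BP3 IP replicate 2 (1.17) or 3 (1.05), was left out. *JUP* missed the thresholds without any 1 of these 4 (0.52, 0.70, 0.58 and 0.56 in the same order) and without IgG IP replicate 1 (0.59). Over all tested genes, leaving out the same 4 took the upward calls from 169 to 19, 7, 0 and 23. Without IgG IP replicate 1 they numbered 134. The loss with these 4 was thus not particular to *MUC1* and *JUP*, and its cause was not tested. With any 1 library left out, the log2 fold change of *MUC1* stayed between 1.05 and 1.33.

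**Figure D1:**
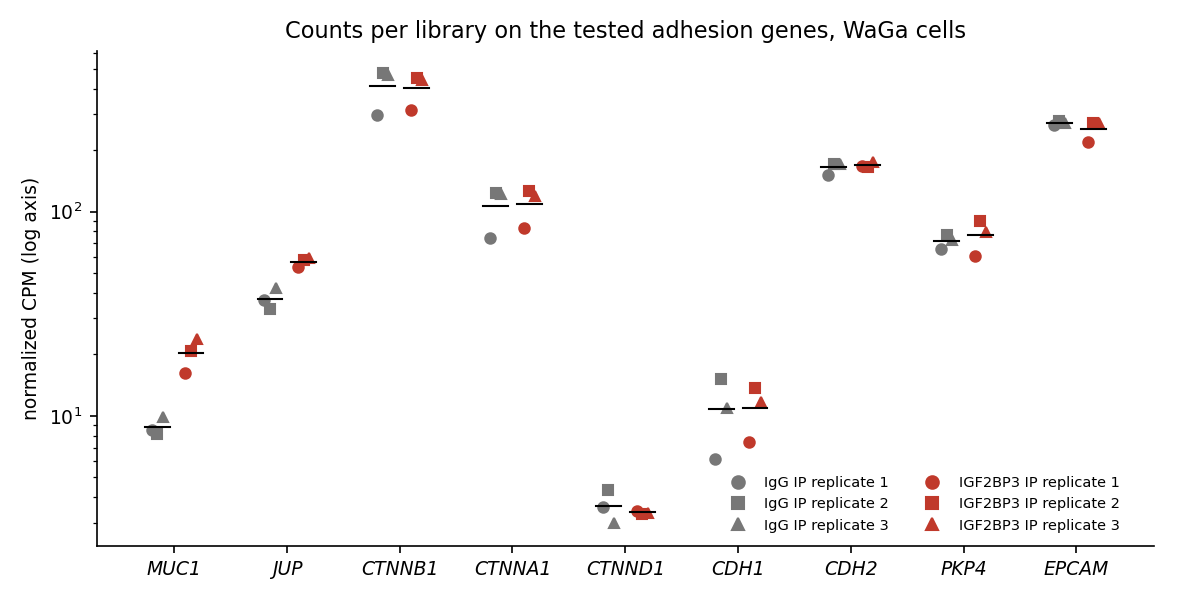
Normalized CPM (log axis) of the 9 tested genes in each library, with IgG IP in grey and IGF2BP3 IP in red, symbols for replicate numbers and black bars for group means. The 3 IGF2BP3 IP libraries lie above the 3 IgG IP libraries for *MUC1* and *JUP*, while the groups overlap for the other genes and the replicate 1 libraries (circles) are the lowest for *CTNNB1*, *CTNNA1*, *CDH1*, *PKP4* and *EPCAM*.

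Beta-catenin, encoded by *CTNNB1* (chr3:41194741-41260096, plus strand, ENSG00000168036.18), is the closest relative of plakoglobin and the effector of Wnt signaling. Its normalized CPM were 296, 475 and 466 with IgG and 315, 451 and 438 with the IGF2BP3 antibody. The groups overlapped, and replicate 1 was the lowest library of each. On the log2 scale the fitted difference was -0.04 with a standard error of 0.19 (95% confidence interval -0.48 to 0.40), an interval that does not reach 1.5-fold in either direction. The interval lay below the estimate for *JUP*, although no test set the 2 genes against each other. The log2 ratio of *JUP* to *CTNNB1* counts within a library was -3.00, -3.84 and -3.46 with IgG and -2.55, -2.96 and -2.89 with the IGF2BP3 antibody. The 3 IGF2BP3 IP values were above the 3 IgG IP values. As *JUP* was chosen on this comparison, the ratio restates its difference and adds no support to it. The log2 ratio of *JUP* to *CTNNA1* counts, at -1.01, -1.89 and -1.52 against -0.63, -1.12 and -1.02, overlapped between the IPs.

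*CTNNA1* encodes alpha-E-catenin, the link from the cadherin complex to actin (chr5:138610967-138935034, plus strand, ENSG00000044115.21). Its normalized CPM were 74.4, 123 and 121 with IgG and 83.2, 126 and 119 with the IGF2BP3 antibody. They overlapped and split by replicate number in the same way as *CTNNB1*. Its fitted log2 fold change was 0.04, with a standard error of 0.21 (95% confidence interval -0.43 to 0.51).

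*CTNND1* encodes catenin delta-1, which binds the membrane-near part of classical cadherin tails and keeps them at the surface (chr11:57753243-57819546, plus strand, ENSG00000198561.15). Its 33, 65 and 37 counts with IgG and 41, 44 and 41 with the IGF2BP3 antibody came to 3.58, 4.36 and 2.98 against 3.44, 3.32 and 3.33 normalized CPM. The groups overlapped, with the IGF2BP3 IP libraries inside the range of the IgG IP. The log2 fold change of -0.12 had a 95% confidence interval of -0.62 to 0.38, which reaches 1.5-fold on the lower side. The counts of this gene are uncertain. Set against FPKM times transcript length, they were 0.0743 of the median ratio over tested genes, a value under which 0.791% of 14290 tested genes fell. The readthrough genes ENSG00000288534 and ENSG00000254732 overlap *CTNND1* on the same strand and held 0 to 2 and 0 to 7 counts per library. Whether reads shared with them were left uncounted was not tested. The same measure was 0.466 for *MUC1*, with 10.2% of tested genes below it, and ran from 0.908 to 1.27 for the 7 other tested genes. *MUC1* shares 1449 bases with ENSG00000273088 on its strand, which had 0 counts.

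Of the classical cadherins, *CDH1* (E-cadherin, chr16:68737292-68835537, plus strand, ENSG00000039068.20) is the main one of epithelia and *CDH2* (N-cadherin, chr18:27932879-28177946, minus strand, ENSG00000170558.10) that of neural and mesenchymal cells. *CDH1* had between 57 and 227 counts in a library. Its normalized CPM of 6.18, 15.2 and 10.9 in the IgG IP spread more than those of 7.47, 13.7 and 11.7 in the IGF2BP3 IP. The groups overlapped, and replicate 1 was the lowest in each. Its log2 fold change was 0.01, with the widest 95% confidence interval of the 9 genes, -0.71 to 0.73. That interval reaches past 1.5-fold on both sides. With the replicate number as a block the log2 fold change was 0.04 and its standard error fell from 0.32 to 0.13.

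*CDH2* had 1399 to 2559 counts in a library. In normalized CPM it was at 152, 171 and 170 with IgG and 166, 166 and 175 with the IGF2BP3 antibody, so the libraries of both groups lay together. It had the narrowest interval of the 9 genes, with a log2 fold change of 0.04 and 95% bounds of -0.14 and 0.22.

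The desmosomal side of the group rested on few RNAs besides *JUP*. *DSP* (chr6:7541338-7586714, plus strand, ENSG00000096696.14) encodes desmoplakin, the plaque protein that anchors keratin filaments. It had 0 counts in 5 libraries and 1 count in IGF2BP3 IP replicate 3, was listed at 0.01 TPM there and at 0 in the others, and entered no fit. *PKP4* (chr2:158456952-158682879, plus strand, ENSG00000144283.22) encodes plakophilin 4, an armadillo protein of the catenin delta-1 family. Its normalized CPM were 65.8, 76.7 and 72.4 with IgG and 60.4, 90.3 and 79.1 with the IGF2BP3 antibody. Replicates 2 and 3 of the IGF2BP3 IP were the highest libraries and its replicate 1 the lowest. The log2 fold change was 0.10 (95% confidence interval -0.23 to 0.42).

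*EPCAM* (chr2:47345158-47387601, plus strand, ENSG00000119888.11) had 2458 to 4124 counts in a library. In normalized CPM it was at 266, 276 and 272 with IgG and 219, 270 and 271 with the IGF2BP3 antibody. Apart from the low replicate 1 of the IGF2BP3 IP, the 5 libraries lay within a narrow range. Its log2 fold change of -0.10 had a standard error of 0.10 (95% confidence interval -0.32 to 0.12). Relative to *EPCAM* in the same library, the log2 ratio of *MUC1* counts was -4.96, -5.09 and -4.78 with IgG and -3.75, -3.69 and -3.51 with the IGF2BP3 antibody. These ratios did not overlap between the IPs, with all 3 IGF2BP3 IP values above the IgG IP values. Since *MUC1* was chosen on this comparison and *EPCAM* differed little, the ratio restates the difference of *MUC1* and adds no support to it.

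**Figure D2:**
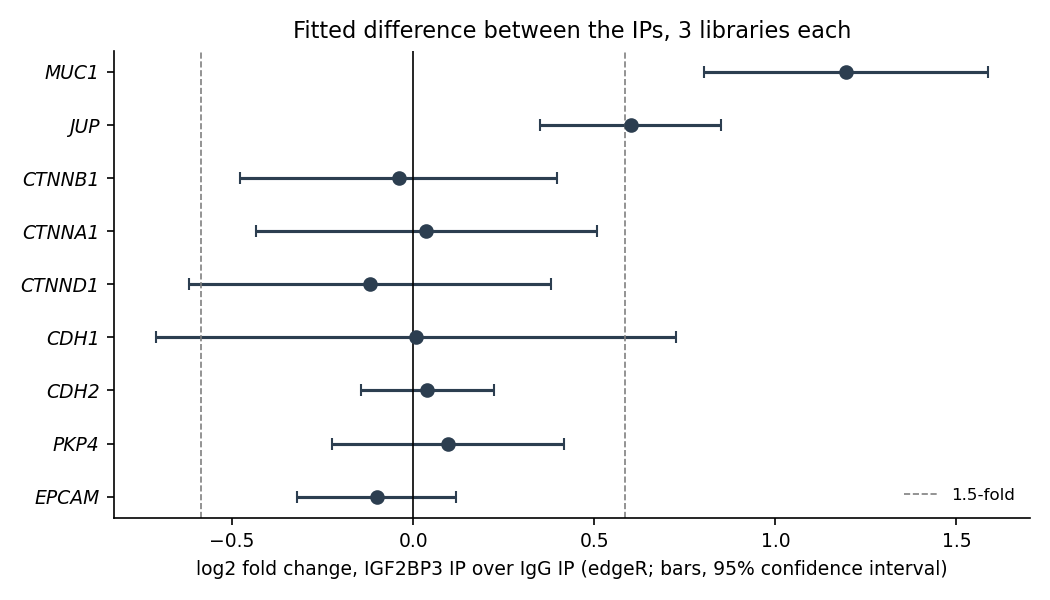
Fitted log2 fold changes of IGF2BP3 IP over IgG IP for the 9 tested genes, with 95% confidence intervals from 3 libraries per IP and dashed lines at 1.5-fold in each direction. The intervals of *MUC1* (0.80 to 1.59) and *JUP* (0.35 to 0.85) lie above 0, and those of the other 7 genes hold 0.

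Levels were compared between genes in TPM, which is scaled per length. In a pull-down from bulk lysate, fewer cells with an RNA and less RNA per cell cannot be told apart. The TPM describe RNA left on the beads, and without a library of unprecipitated RNA the order need not be that in the cells. The mean TPM in the IgG IP was highest for *EPCAM* (259 ± 57.0, SD, n = 3), followed by *CTNNB1* (159 ± 57.7), *CDH2* (53.3 ± 13.4), *CTNNA1* (39.8 ± 17.6) and *PKP4* (22.1 ± 7.52). Below these came *MUC1* (14.8 ± 3.20), *JUP* (11.2 ± 3.50), *CTNND1* (9.68 ± 3.13), *CDH1* (4.25 ± 3.59) and *DSP*, listed at 0. The TPM ranges over 3 libraries overlapped between each pair of neighbours in this order, except between *CTNNB1* and *CDH2* and between *CDH1* and *DSP*. In FPKM the order in the IgG IP was the same. There the ranges of *EPCAM* and *CTNNB1*, of *PKP4* and *MUC1*, and of *CTNND1* and *CDH1* did not overlap either. The N-cadherin RNA, at 37.8 to 61.4 TPM, thus lay above the E-cadherin RNA, at 1.10 to 8.16 TPM, in every IgG IP library. In the IGF2BP3 IP the order was the same but for *MUC1*, whose mean of 36.7 ± 11.6 TPM (SD, n = 3) put it in place 5, above *PKP4* at 25.7 ± 9.82. Their TPM ranges overlapped there as well.

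*MUC1* in TPM was at 13.1, 12.9 and 18.5 in the IgG IP and at 23.7, 46.0 and 40.5 in the IGF2BP3 IP. *JUP* was at 7.68, 11.4 and 14.7 against 16.4, 21.6 and 21.8. For both genes the groups stayed apart on this scale, with the lowest IGF2BP3 IP library again replicate 1. The log2(TPM + 1) values differed by 1.22 for *MUC1* and 0.80 for *JUP*. On that scale the median of all tested genes differed by 0.11, and relative to it the differences were 1.11 and 0.69. Neither gene, nor any other of the 14507, passed the thresholds in limma-trend on these values. Unadjusted p-values under 0.05 with 1.5-fold or more were reached by 476 genes upward and 34 downward.

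**Figure D3:**
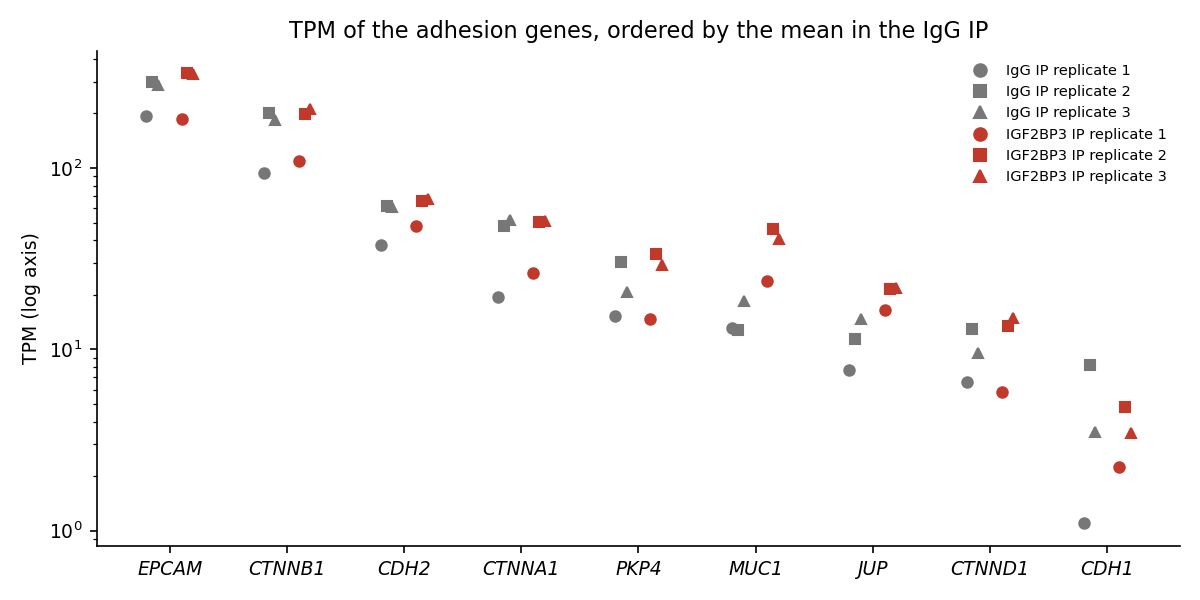
TPM (log axis) of 9 genes in each library, from the highest to the lowest mean in the IgG IP, with IgG IP in grey, IGF2BP3 IP in red and symbols for replicate numbers (*DSP*, at 0 to 0.01 TPM, is not drawn). *EPCAM* and *CTNNB1* stand above the rest, and *MUC1* and *JUP* are the genes whose IGF2BP3 IP libraries all lie above their IgG IP libraries.

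The replicate number was a second source of difference that the choice of genes had not used. A test of it with the IP as a term (edgeR quasi-likelihood F test, Benjamini-Hochberg adjusted over all tested genes) was added after the data had been seen. It passed for 4 of the 9 genes, against 22.9% of all tested genes. These were *CTNNB1* (adjusted p = 3.42e-07, edgeR), *CTNNA1* (adjusted p = 9.05e-07), *CDH1* (adjusted p = 0.000153) and *PKP4* (adjusted p = 0.00505). For each of the 4, both replicate 1 libraries lay below the other 4 libraries. The log2 difference of replicate 1 from the mean of replicates 2 and 3 was -0.67 in the IgG IP and -0.50 in the IGF2BP3 IP for *CTNNB1*. It was -0.72 and -0.55 for *CTNNA1*, -1.0 and -0.73 for *CDH1*, and -0.18 and -0.48 for *PKP4*.

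*EPCAM* (adjusted p = 0.131), *MUC1* (0.103), *JUP* (0.323), *CDH2* (0.453) and *CTNND1* (0.752) did not pass the same edgeR test of the replicate number. For *MUC1* the replicate 1 difference was -0.06 in the IgG IP and -0.45 in the IGF2BP3 IP, and for *JUP* it was -0.02 and -0.12. In these estimates the beta-catenin and alpha-catenin RNAs differed more between replicate 1 and the others than between the IPs, and *MUC1* differed more between the IPs. Since the genes were chosen with their difference between the IPs known, nothing is read from this contrast. With the replicate number as a block, the log2 fold changes between the IPs were 1.2 for *MUC1* and 0.61 for *JUP*, and the same 2 genes of the 10 were past the thresholds.

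**Figure D4:**
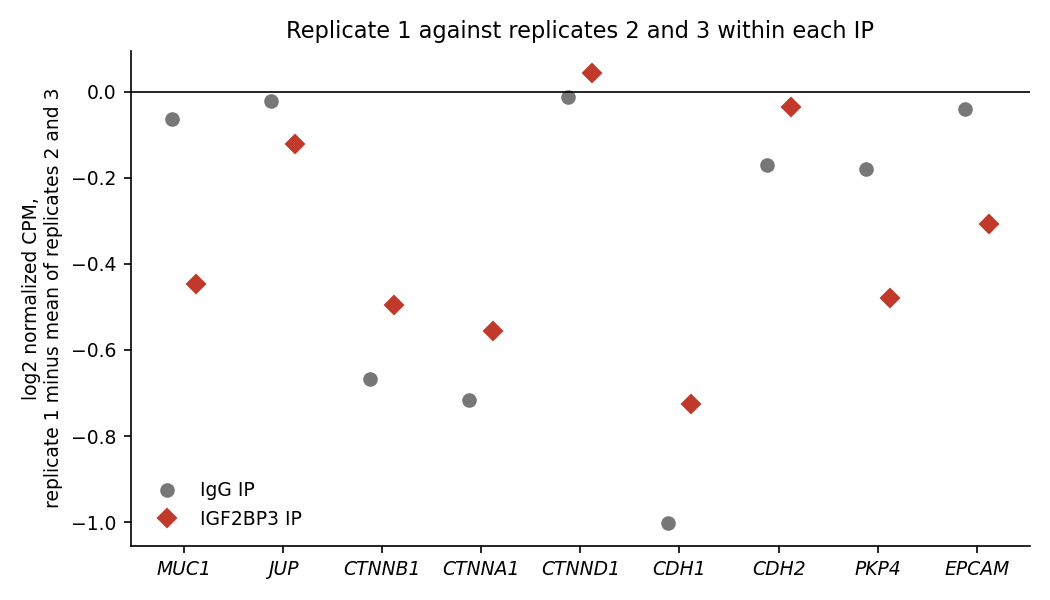
Difference in log2 normalized CPM of replicate 1 from the mean of replicates 2 and 3 within the IgG IP (grey circles) and the IGF2BP3 IP (red diamonds) for the 9 tested genes. *CTNNB1*, *CTNNA1* and *CDH1* lie between -1.0 and -0.50 in both IPs, whereas *JUP*, *CTNND1* and *CDH2* lie between -0.17 and 0.04.

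Base composition differed among the 10 genes along with their difference between the IPs. The canonical transcripts of *MUC1* and *JUP* had 58.6% and 61.5% G and C, above 82.5% and 89.9% of the transcripts of tested genes, whereas the other 8 ran from 43.1% for *CDH2* to 49.3% for *PKP4*. Across the 14479 tested genes with a transcript, which are not independent replicates, the log2 fold change rose with GC content (Spearman's rho 0.41). Tested genes within 1 percentage point of the GC content of *MUC1* had a median log2 fold change of 0.14 (806 genes), and those around *JUP* of 0.20 (674 genes). After the GC content of transcripts had been corrected for in each library, the log2 fold change was 1.02 for *MUC1*, which stayed past the thresholds, and 0.40 for *JUP*, which fell under 1.5-fold. The part of GC content in the *JUP* value was not tested further.

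In motif content *MUC1* and *JUP* were not at the upper end. TGGAC stood in 89.4% of the tested genes' transcripts and CATA, CATC or CATT in 99.6%. The *MUC1* transcript (1811 bases) held 2 TGGAC and 15 CAT motifs, or 1.10 and 8.28 per kilobase, at percentiles 51.2 and 24.6 of the tested transcripts. *JUP* (3505 bases) held 4 and 31, or 1.14 and 8.84 per kilobase, at percentiles 53.4 and 29.4. *CTNNB1*, *EPCAM*, *CDH2* and *CTNNA1* held more TGGAC per kilobase, at 3.0, 2.59, 2.24 and 2.13, and these lay at percentiles 95, 91.6, 87.4 and 85.4. Their CAT motifs were at percentiles 36.5, 45.0, 68.9 and 54.5. *CTNND1*, *CDH1*, *DSP* and *PKP4* were at percentiles 40.1, 47.8, 53.0 and 16.9 for TGGAC. For CAT motifs these were at 45.0, 36.5, 44.6 and 81.1. *MUC4*, whose window is printed above, was at percentile 21.2 for TGGAC and 82.9 for CAT motifs. In the 3′ UTRs, *MUC1* had 1 TGGAC and 1 CAT motif in 311 bases and *JUP* 0 and 4 in 1135 bases.

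By likeness of profile, the genes whose log2 normalized CPM over the 6 libraries followed *MUC1* most closely were *INTS9* (Pearson's r = 0.998), *CDKN1C*, *SEPTIN3*, *KRBA1* and *ZDHHC3* (r = 0.992). Those closest to *JUP* were *DENND1A* (r = 0.995), *TBCD*, *GPR153*, *ZDHHC3* and *NARF* (r = 0.988). *ZDHHC3* was named for both. The 6 points, normalized for depth, share the split between the IPs, and these r are the highest among 14507 genes. The log2 fold changes of the named genes ran from 0.14 for *NARF* to 0.80 for *SEPTIN3*, all below the 1.19 of *MUC1*.

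Other genes of junctions, membrane mucins and the beta-catenin pathway were taken as 7 lists by function, with earlier results of these data known. The lists held 129 genes in all, of which 76 were tested. Of these 76, 1 was higher in the IGF2BP3 IP past the thresholds and 0 were lower (edgeR quasi-likelihood test, Benjamini-Hochberg adjustment over the 14507 genes), against 1.16% and 0% of all tested genes. With the replicate block 5 were higher and 0 lower, against 3.56% and 0.103% of tested genes. The median log2 fold change of the 76 was 0.06, beside -0.01 for all tested genes.

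The gene past the thresholds was *MUC4*, which encodes another large membrane mucin. Its counts were 17, 35 and 45 with IgG and 61, 154 and 123 with the IGF2BP3 antibody, or 1.84, 2.35 and 3.63 against 5.12, 11.6 and 10.0 normalized CPM. All IGF2BP3 IP libraries lay above the IgG IP, with replicate 1 the lowest in each group. The fitted log2 fold change was 1.76, with a standard error of 0.35 and an adjusted p of 0.0496 (edgeR quasi-likelihood test). That adjusted p is close to the threshold, and the call was lost without IgG IP replicates 1, 2 or 3 (log2 fold changes 1.60, 1.67 and 2.07) or IGF2BP3 IP replicates 2 or 3 (1.51 and 1.65). Of the 12 genes in its list of other membrane mucins, the only other tested one was *CD164*, at -0.17.

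The 4 further genes that passed with the replicate block were named after their values had been seen. They were *NECTIN1*, a nectin of adherens junctions, *BCL9*, a nuclear partner of beta-catenin, *CLDN9*, a claudin of tight junctions, and *CDH23*, an atypical cadherin of hair cells. Their log2 fold changes with the block were 0.80 (adjusted p = 1.44e-05, edgeR), 0.87 (adjusted p = 7.85e-05), 1.08 (adjusted p = 0.0374) and 0.63 (adjusted p = 0.0248). Without the block their adjusted p-values were 0.0815, 0.113, 0.199 and 0.374 in the same order. The normalized CPM of *NECTIN1* were 8.89, 12.8 and 13.1 with IgG and 17.0, 22.6 and 21.0 with the IGF2BP3 antibody, with no overlap. *CLDN9* rested on 7 to 33 counts per library. In DESeq2 without the block, *NECTIN1* and *BCL9* also passed (adjusted p = 0.00908 and 0.0287).

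In the remaining lists no gene passed in the edgeR fit of all 6 libraries with filterByExpr and without the block. Of 21 other cadherins 13 were tested, with a median log2 fold change of 0.21, and those with most counts were *CDH3* (0.20), *CDH24* (0.51) and *CDH26* (-0.17). Other catenins, nectins and adherens junction partners had 13 of 14 tested and a median of 0.10, with the actin-linked *AFDN* at -0.11, *CTNNAL1* at -0.06 and *LIMA1* at -0.10. Of 13 other desmosome genes only *PERP* (-0.10), *PKP2* (0.03) and *PKP3* (0.04) were tested. The desmosomal cadherins *DSG1*, *DSG3*, *DSG4*, *DSC1* and *DSC3* had 0 counts in all 6 libraries, *DSC2* had 0 to 2 and *DSG2* 0 to 12 per library.

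Tight junction genes had 24 of 39 tested, a median of 0.06 and *MARVELD2* (0.20), *CLDN12* (0.05) and *PARD6B* (-0.14) as those with most counts. The 15 tested of 19 genes of the beta-catenin destruction complex and its transcription partners had a median of 0.09. Among them the kinases *GSK3B* and *CSNK1A1* were at 0.35 and -0.11 and the ubiquitin ligase subunit *FBXW11* at -0.06. Of 11 regulators of epithelial-mesenchymal transition 6 were tested, with a median of -0.01 and *ESRP1* (-0.13), *ZEB1* (-0.13) and *ZEB2* (0.21) as those with most counts.

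**Figure D5:**
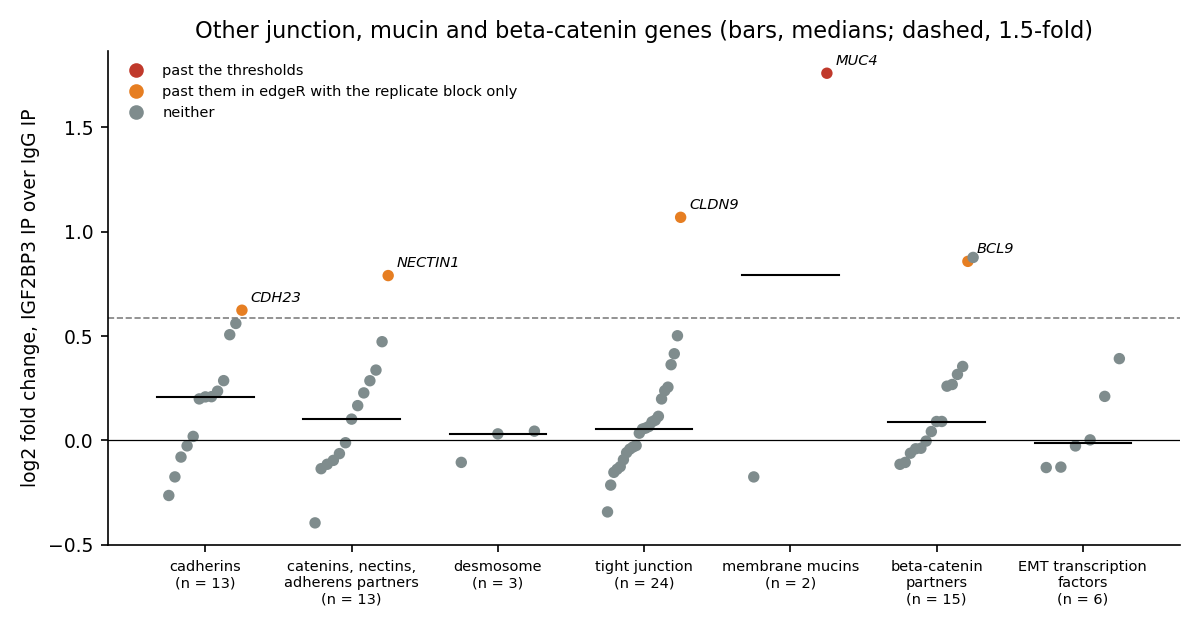
Log2 fold change of IGF2BP3 IP over IgG IP for the 76 tested genes of 7 related lists, with black bars for list medians and a dashed line at 1.5-fold. *MUC4* (1.76) is past the thresholds, *CDH23*, *NECTIN1*, *CLDN9* and *BCL9* are past them in the edgeR fit with the replicate block but not in the one without, and the list medians lie between -0.01 and 0.79, the last from 2 mucin-list genes.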

How the data were processed

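The 10 genes and the related lists were chosen with earlier results of these data known. The authors mapped paired-end reads of 150 bases to GRCh38 with STAR 2.7.9a, and RSEM with the annotation of GENCODE version 37 served for quantification. The authors deposited whole-number counts per gene without normalization, and TPM and FPKM values. The program behind the counts and its use of strand are not given in the sources used here, so reads of overlapping genes are uncertain.

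From the counts, edgeR 4.0.16 (R 4.3.3) was run on all genes with filterByExpr, TMM and the quasi-likelihood test, with the IP as the only term. The fit was also tested on simulated data. These held no difference between replicate numbers, unlike the real libraries, so they do not show how the fit behaves with one. Thresholds were 1.5-fold and 0.05 for the p-value after Benjamini-Hochberg adjustment. In this fit the p-values set the difference between the IPs against the spread between the 3 libraries of an IP. Alternatives were DESeq2 1.42.0 (the methods' test), limma 3.58.1 (voom, and trend on log2 of the deposited TPM plus 1 or 0.1), RLE factors, library totals, other count filters, corrections for GC content and length (loess span 0.5), leaving out each library, FPKM in place of TPM for levels, and the replicate number as a block.

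Libraries of the same number deviated together from their group means (correlations across genes 0.60, 0.32 and 0.26). The crossed pairs of replicates 2 and 3 correlated at 0.30 and 0.31, about as much as their own pairs. Crossed pairs with replicate 1 ran from -0.46 to -0.40. The values thus set replicate 1 apart in both IPs and do not show that replicates 2 and 3 were paired by number. The replicate block and the ratios within pairs take the numbers as given. Gene models, GC content and motifs came from GENCODE version 44, which held 60437 of the 60611 gene identifiers without version. Named genes were the 10 genes, in each list those past the thresholds or else the 3 tested genes with most counts, and the 5 tested genes most like *MUC1* and *JUP*. A gene of the related lists is not reported here.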

Additional observations from a re-analysis of the deposited data

How the results depend on the processing

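Against 2 of the 10 adhesion genes past the thresholds, 0 passed with limma-trend on log2(TPM + 1) and on log2(TPM + 0.1), 1 (*MUC1*) with the GC correction, with the GC correction and replicate block, and with the length correction, and 0 to 2 when 1 library was left out. *JUP* moved to 0.40 with the GC correction and 0.41 with that and the block, and was at 0.52 with the length correction. limma-trend gave 0.80 and 0.86 for *JUP*, 0.16 and 0.17 for *CTNND1* (-0.12 on counts), 0.19 and 0.20 for *CDH2* and 0.10 and 0.10 for *EPCAM* (-0.10 on counts), against 0.11 and 0.13 for the median over all genes. Leaving out 1 library gave 1.05 to 1.33 for *MUC1* and 0.52 to 0.70 for *JUP*. The values of *CTNNB1*, *CTNNA1*, *CTNND1*, *CDH1*, *PKP4*, *CDH2* and *EPCAM* changed sign among the 19 alternatives with no call. They lay between -0.25 and 0.35, and both of these bounds came from *CDH1*.

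Of the related lists, 1 gene was higher, and the number was 3 with DESeq2 and with DESeq2 and the replicate block (*MUC4*, *NECTIN1* and *BCL9*), 3 without a filter, 5 with the replicate block in edgeR, 3 with the GC correction and block, 0 with RLE factors, a minimum of 10 counts per library, limma-voom, limma-trend or the GC correction, and 0 to 3 with 1 library left out. *MUC4* kept its direction in all of them. Over all genes, 169 higher and 0 lower became 281 higher with DESeq2, 359 and 1 without a filter, 517 and 15 with the replicate block, 321 and 1 with the block in DESeq2, 82 with the GC correction, 273 and 32 with that and the block, 0 with either limma-trend, and 0 to 244 higher with 1 library left out (0 without IGF2BP3 IP replicate 2, where 473 upward and 62 downward had 1.5-fold and an unadjusted p under 0.05). The cause was not tested. The replicate block changed no call of the 10 genes. Low counts limit the precision for *CTNND1*, *MUC4* and *CLDN9*, and *DSP* could not be tested.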
